A study of Danio rerio with 8 samples.

Results

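Zebrafish embryos that had all received the same antisense morpholino against prmt6 were compared by shape. The malformed embryos were measured on 4 arrays, 3 of the severe subtype and 1 of the mild subtype, and the embryos of normal appearance on 1 array, so the comparison used 5 of the 8 arrays of the study. Each embryo had received 3 nl of morpholino at 0.3 mM by the 2-cell stage and was collected whole at 6 hours post fertilization (hpf), when gastrulation begins. The other 3 arrays came from embryos injected with a control morpholino, labelled cMO, at the same dose and age, and are given below as levels only. Strain and number of embryos per array were not given in the labels. The titles call the 3 severe arrays biological replicates without saying whether they came from separate clutches. The p-values of malformed against normal embryos measure only the spread among the 4 malformed arrays, severe and mild together. The lone normal array adds none. The mild and the normal subtype have no replicates.

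A morpholino is a synthetic oligomer that binds a target RNA and blocks its translation or splicing, and it need not lower the amount of that RNA. The target encodes protein arginine methyltransferase 6, which methylates arginines on histones and other proteins. At the onset of gastrulation the zebrafish embryo consists of a deep cell mass covered by an outer epithelium, the enveloping layer, on a yolk cell whose nuclei form the yolk syncytial layer. The deep cells are then being divided by Nodal, BMP, FGF and Wnt signals into mesendoderm and ectoderm, and transcripts laid down in the egg are being cleared. Embryos arrested or deformed at this stage can therefore differ in cell layers, in patterning and in how much maternal RNA remains, and in whole-embryo RNA fewer cells of a type and less RNA per cell cannot be told apart.

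Values are log2 MAS5 signals, in which 1 unit is a 2-fold difference. Of 15502 probe sets other than array controls, 9301 were bright enough to be tested and stood for 6192 named genes. The array background, taken from negative control probe sets, was log2 5.10. Between 64% and 69.7% of probe sets lay above it on the 5 morpholino arrays, whose median signals were between 6.48 and 6.81. Markers of the deep cells at this stage (tbxta, noto, gsc, chrd, bmp2b, sox3, tbx16, vox and ved) lay above background on all 8 arrays. Markers of tissues that arise later were mostly dim. Of 19 blood probe sets 1 to 2 lay above background on the malformed arrays and 4 on the normal array, and of 21 muscle probe sets 4 to 6 and 9. Of 23 later nervous system probe sets 6 to 10 lay above background on the malformed arrays and 6 on the normal array. The 2 genes of that list bright enough to test had a median difference of -1.37. Of these, dlb, a Delta ligand of Notch, read 3.71 to 5.46 in malformed embryos, against 6.86 in normal embryos. Only the mild array of the malformed arrays lay above background for dlb. The part of these tissues in the results was not tested. The difference between 3′ and 5′ GAPDH probe sets, a measure of RNA integrity, was between -0.59 and 0.58 on the 5 arrays. The same measure for actin was 0.99, 0.84 and 3.73 on the severe arrays and 0.37 on the mild array, against 3.76 on the normal array, and its part in the results was not tested. The labels named no batch. The severe arrays were not alike. Across the probe sets tested, severe arrays 1 and 2 correlated at 0.981 (Spearman, over probe sets of the same arrays), while severe array 3 was closer to the mild array (0.983) than to either of them (0.959 and 0.966). Counts are therefore also given with severe arrays 1 and 2 left out.

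Genes of the enveloping layer, the yolk syncytial layer and the mesendoderm were among those lower in malformed embryos than in embryos of normal appearance, and genes of the egg and oocyte among those higher. Of 9301 probe sets, 169 passed the threshold (1.82%; limma, Benjamini-Hochberg adjusted p between 0.0449 and 0.0499 for each), 66 higher in malformed embryos (0.71%) and 103 lower (1.11%). By symbol, 56 genes had a probe set that rose and 73 had one that fell. After each array was centred on its median, the split was 299 higher and 249 lower, and on hybridisation controls 2 and 14. A stricter description by array found 511 probe sets (5.49%) at least 2-fold lower than the normal array on each of the 4 malformed arrays. At least 2-fold higher on each were 314 (3.38%). The brightness filter behind these counts, and behind the counts by list below, took in the control arrays. With the filter on the 5 morpholino arrays alone, the counts were 415 lower and 331 higher, a smaller excess of falls. Of the 169 probe sets, 154 were then tested, and all 154 passed again. Severe array 1 had 1948 probe sets at least 2-fold above and 1153 at least 2-fold below the normal array, severe array 2 had 1519 and 939, severe array 3 had 852 and 1028, and the mild array had 458 and 821. Severe array 1 thus lay farthest from the normal array in both directions, and the mild array nearest.

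**Figure D1:**
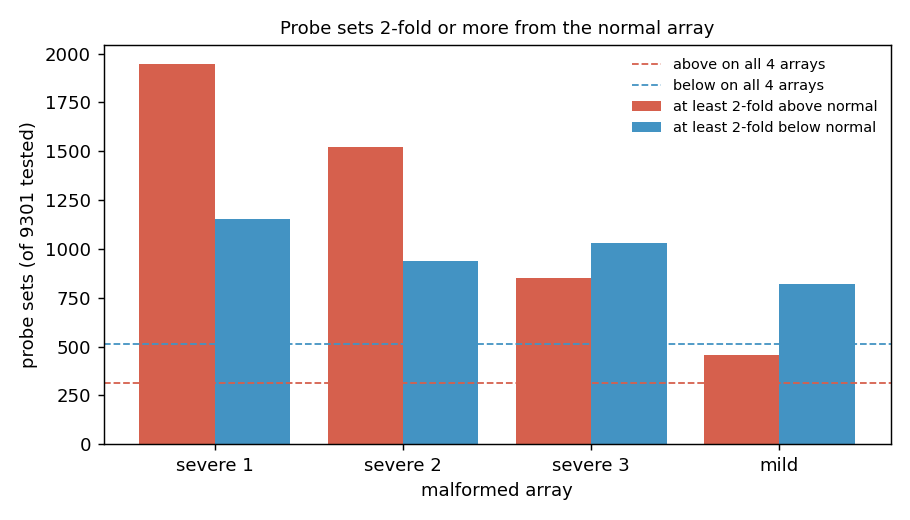
Number of tested probe sets at least 2-fold above (red) and below (blue) the normal array on each malformed array, with dashed lines at the 314 above and 511 below on all 4. The higher counts span 458 on the mild array to 1948 on severe array 1, and the lower counts 821 to 1153.

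The number of calls was unstable. The fit with severe array 3 and the mild array alone takes its spread from that pair, chosen because they were alike (Spearman 0.983). Its count is therefore no sign of a firmer result. With 3 residual degrees of freedom and a lone normal array assumed to vary like the malformed ones, adjusted p-values bunched just under the threshold. No probe set passed in limma when severe array 2 or severe array 3 was left out (1957 and 2131 at an unadjusted p under 0.05), whereas 1155 passed without the mild array and 1452 with severe array 3 and the mild array alone, all 169 among them. Each of the 169 kept its direction in each alternative in which it was tested. As 62 of the 66 and 101 of the 103 were at least 2-fold to 1 side on every malformed array, leaving out arrays could not turn them, and this is no sign of stability. An exact permutation test of single values, with 4 arrays against 1, cannot give a p below 0.2.

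Severe and mild embryos were tested against each other in the same way, and 0 of 9301 probe sets passed (limma; 622 at an unadjusted p under 0.05). A fit without 1 severe array takes its spread from the remaining severe arrays alone. Severe arrays 1 and 2 were alike (Spearman 0.981), which favours calls, so such counts cannot decide whether the subtypes differ. The result changed most without severe array 3. Without it, 1691 probe sets passed. Without severe array 2, 7 passed, and without severe array 1, 0. For the 66 higher probe sets the mild array lay between the normal array and the severe mean in 59, and for the 103 lower ones in 85. These probe sets were chosen for malformed arrays, the mild one included, that lay off the normal array, which favours such a place. The share over all probe sets was not counted, so these counts cannot show an order by severity.

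The 12 leading falls included genes of the enveloping layer (anxa1b, anxa1c and capn9) and of the mesoderm (eve1, msgn1 and cdx4). Of the 12, anxa1b, anxa1c, gcnt4a and rbm47 reached the brightness filter only through the control arrays. With the filter on the 5 morpholino arrays alone they were too dim to be tested. The annexin gene anxa1b, expressed in the enveloping layer, read log2 3.63, 3.90 and 3.98 in severe embryos and 4.62 in mild embryos, against 8.58 in normal embryos. All 4 malformed values lay under the array background, so anxa1b was at least 11.1-fold lower (fitted log2 difference -4.55, SE 0.50, n = 4 against 1, limma adjusted p = 0.0449). Its relative anxa1c was likewise under background on all 4 malformed arrays, at least 7.31-fold lower than on the normal array (7.97). The calpain protease gene capn9 read 6.74, 7.70 and 6.01 in severe embryos and 7.07 in mild embryos, against 11.12 in normal embryos. Its fall of 18.9-fold was measured above background on every array.

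The homeobox gene eve1, active in ventral and posterior mesoderm, read 3.86, 5.61 and 4.82 in severe embryos and 6.08 in mild embryos, against 9.63 in normal embryos (log2 difference -4.54, SE 0.79). Mild embryos had the highest of the malformed values and severe array 1 the lowest. Severe arrays 1 and 3 were under background for eve1, so the size of its fall is uncertain. The caudal-type homeobox gene cdx4 and the paraxial mesoderm factor msgn1 fell by 3.79 and 3.96 on the log2 scale. For cdx4 the malformed arrays spanned 4.62 to 5.16, at or about the background, against 8.79 in normal embryos. For msgn1 they spanned 4.96 to 6.36, against 9.69. The apolipoprotein gene apoc1, expressed in the yolk syncytial layer, read 6.99, 8.25 and 7.92 in severe embryos and 9.12 in mild embryos, against 11.89 in normal embryos, a 14.1-fold fall. The remaining leading falls were pttg1ipa (-4.46, and -4.04 on a second probe set), dldh (-4.41), both with most or some malformed values under background so that these sizes are uncertain, gcnt4a (at least 10.3-fold), znf185 (-3.92) and the RNA-binding protein gene rbm47 (at least 8.34-fold). In none of the 12 did a malformed array reach the normal one, as the choice of these genes required.

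The leading rises were smaller, and several rested on a normal array that was itself unusually low. The gene tigarb, named for a fructose bisphosphatase-like regulator of glycolysis, read 7.57, 7.24 and 6.91 in severe embryos and 6.99 in mild embryos, against 2.98 in normal embryos. As 2.98 lies under background, tigarb was at least 4.21-fold higher. Control morpholino embryos read 6.50, 5.99 and 4.96, so the normal array lay below all 3 of them. The same held for ccdc149b, dlx6a, qdprb.1 and mycbp, each under background in normal embryos (at least 3.04-fold, 3.54-fold, 1.86-fold and 2.55-fold higher in malformed embryos). For qdprb.1 the malformed arrays (5.42 to 6.58) did not separate from the controls (5.62 to 6.57), and a second probe set differed by 0.50 without passing. With the filter on the 5 morpholino arrays alone, qdprb.1 was too dim to be tested.

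Rises measured above background on all 5 arrays were led by cdca9, which read 10.24, 10.06 and 9.14 in severe embryos and 9.11 in mild embryos, against 7.04 in normal embryos (6.05-fold; log2 2.60, SE 0.48). The eye-field homeobox gene rx3 read 8.18, 7.74 and 8.21 in severe embryos and 7.75 in mild embryos, against 5.81 in normal embryos (log2 2.16, SE 0.38). The mitotic spindle gene haus6, whose product belongs to the augmin complex, rose by log2 2.27, the vitamin D hydroxylase gene cyp2r1 by 2.44, klhl18 by 2.42, lrrc61 by 2.14 and gig2o by 2.11. All 4 malformed arrays lay above the normal array for each of the 12, as the choice of these genes required.

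**Figure D2:**
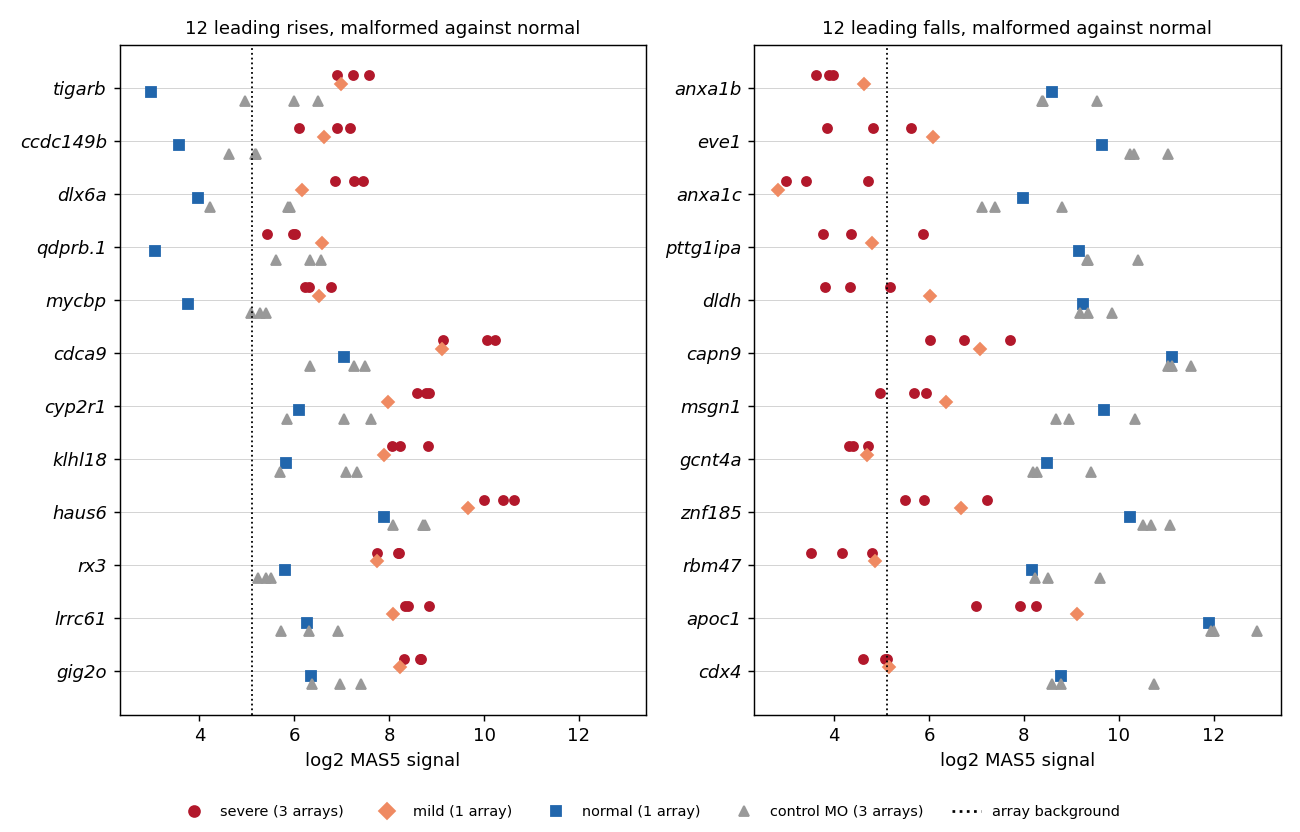
Log2 MAS5 signal of the 12 leading rises (left) and falls (right) on every array, with severe arrays as circles, the mild array as a diamond, the normal array as a square and control arrays as triangles. The dotted line is the array background at 5.10. For the first 5 rises the normal array is under it, and for anxa1b, anxa1c, gcnt4a and rbm47 all 4 malformed arrays are.

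Among gene lists, those of the enveloping layer had the lowest medians. Of 31 enveloping layer genes on the array, 28 passed the brightness filter. Of these, 6 fell (1.13% of all genes did) and 0 rose (0.888% of all genes), and 16 read at least 2-fold lower on each malformed array, against 4.93% of all genes. The median difference was -2.18, against 0.11 over all genes tested. By array it was -2.64, -1.93 and -2.50 in severe embryos and -1.72 in mild embryos. Besides anxa1b, anxa1c and capn9, the falls were anxa1a (-3.04) and the cornified-envelope and junction plaque genes evpla (-3.65) and ppl (-2.77), which encode envoplakin and periplakin. For evpla only severe array 2 of the malformed arrays lay above background, so the size is uncertain. Of these falls, anxa1b, anxa1c and evpla were not tested with the filter on the 5 morpholino arrays alone.

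Keratins, the intermediate filaments of that epithelium, gave large differences with wide spread. All 7 keratin genes tested read at least 2-fold lower on each malformed array, while 6 others on the array were too dim to test, and none of the 7 passed (6 of 7 were at least 2-fold lower under median, hybridisation-control or quantile scaling). Of all genes, 4.93% were at least 2-fold lower on each malformed array. The share of all genes that passed, 2.02%, would give few calls in a list of this size. The type I keratin gene krt17 read 3.68, 5.26 and 1.11 in severe embryos and 3.52 in mild embryos, against 9.56 in normal embryos. Of its malformed values only that of severe array 2 lay above background, so the size is uncertain. Under the filter on the 5 morpholino arrays alone krt17 was not tested. The values for krt5 were 6.11, 9.06 and 4.63 in severe embryos and 7.46 in mild embryos, against 12.11 in normal embryos (log2 difference -5.30, SE 1.37, limma adjusted p = 0.0748). For krt4, malformed embryos ranged from 8.30 to 10.28, against 12.72 in normal embryos, and for krt8 from 10.45 to 11.94, against 13.53. Severe array 3 was the lowest of the malformed arrays for krt17, krt5 and krt4, and severe array 2 or the mild array the highest. The keratin list shares 6 of its 7 genes with the enveloping layer list, where they are 6 of 28.

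The yolk syncytial layer, which feeds and signals to the overlying cells, differed in the same direction. Of 26 listed genes on the array 13 were tested, of which 2 fell (1.13% of all genes did) and 7 read at least 2-fold lower on each malformed array, against 4.93% of all genes (median -1.98). The 2 were apoc1 and the GATA factor gene gata6, which read 6.36, 6.98 and 7.26 in severe embryos and 7.31 in mild embryos, against 9.51 in normal embryos (log2 difference -2.53, SE 0.45). The apolipoprotein gene apoc2 read 2.16, 2.05 and 2.47 in severe embryos and 6.01 in mild embryos, against 8.95 in normal embryos (limma adjusted p = 0.0675 for malformed against normal, and 0.541 for severe against mild). Its 3 severe values lay under background, and it was not tested with the filter on the 5 morpholino arrays alone. The list member afp4 read 5.05, 7.11 and 6.76 in severe embryos and 8.23 in mild embryos, against 11.72 in normal embryos, without passing. The homeobox gene mxtx2, which acts at the head of the layer's gene programme, was the single member higher in malformed embryos (0.21, SE 0.36, not passing). By array the list's median was -2.90, -2.53 and -1.71 in severe embryos and -1.04 in mild embryos.

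**Figure D3:**
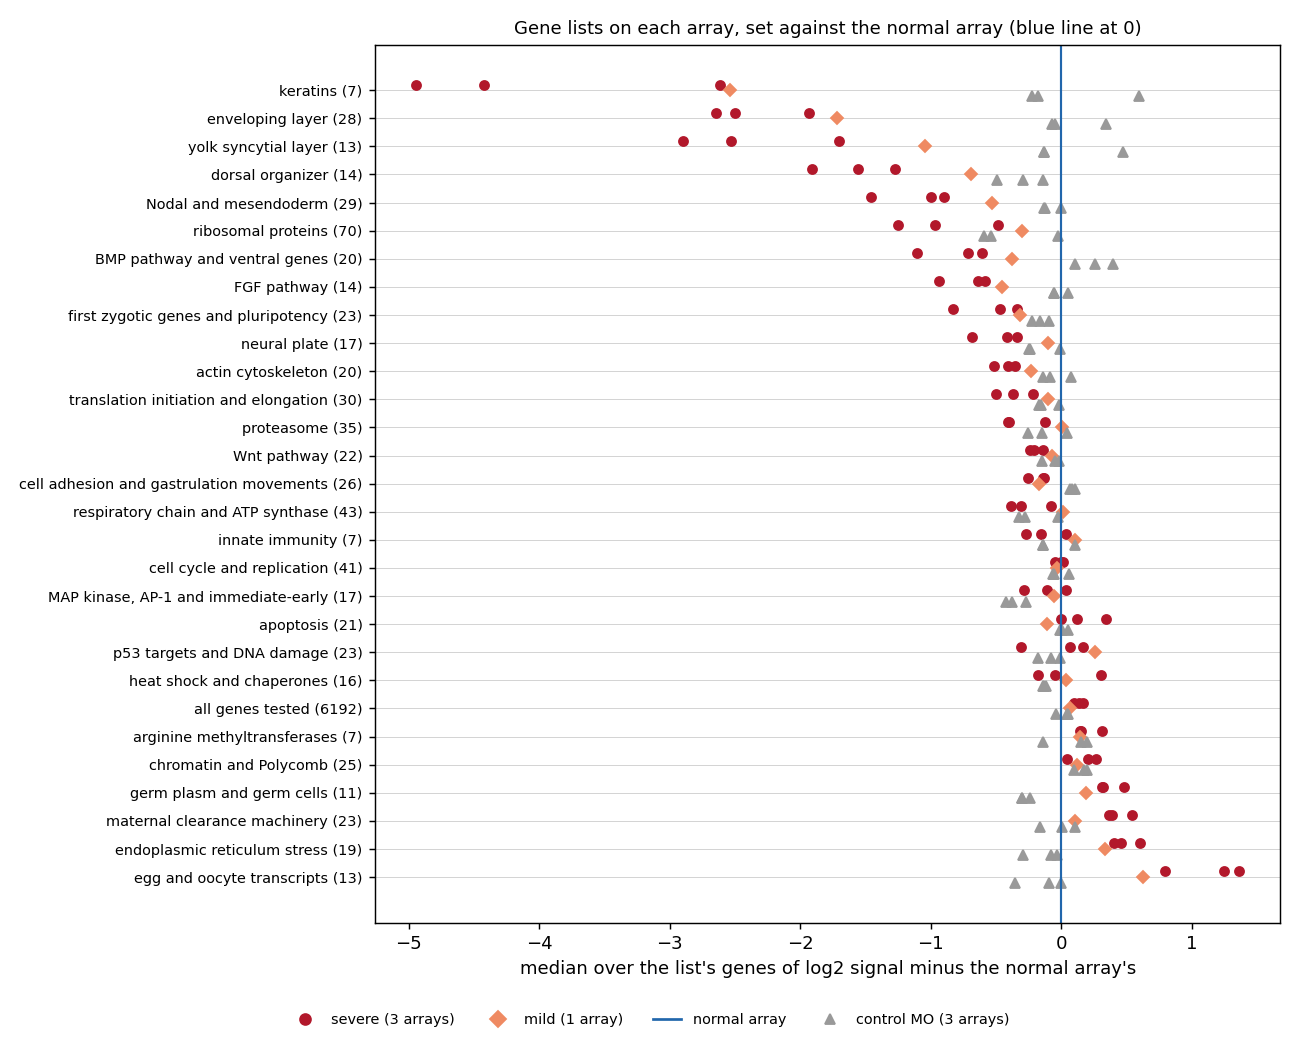
Median over each list's genes of the log2 signal minus that on the normal array, for every severe, mild and control array; the blue line at 0 is the normal array and numbers in brackets are genes tested. Of the lists drawn, keratins, enveloping layer and yolk syncytial layer have the lowest medians, egg and oocyte transcripts the highest, while the controls lie between -0.59 and 0.59.

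Genes of Nodal signalling and mesendoderm, the common precursor of mesoderm and endoderm, were lower in malformed embryos. Of 33 on the array, 29 were tested. Of these, 6 fell (1.13% of all genes did) and 1 rose (0.888% of all genes did). In all, 9 read at least 2-fold lower on each malformed array, against 4.93% of all genes (median -0.86). The falls were eve1, msgn1, gata6, the Notch ligand gene dlc (-3.48, SE 0.65), the segmentation factor gene mespaa (at least 3.88-fold) and the actin-bundling gene fscn1a (-1.19, and -1.90 on a second probe set that also passed). A further fscn1a probe set differed by -0.45 without passing. Under the filter on the 5 morpholino arrays alone mespaa was not tested. The member that rose, her5, is a transcriptional repressor expressed in early endoderm and later in the midbrain (log2 1.53, SE 0.28). A second dlc probe set differed by -3.36 without passing. The mesendoderm list shares 4 genes with the yolk syncytial list and 1 each with the BMP, actin and neural plate lists. Thus gata6, eve1, fscn1a and her5 are each counted in 2 lists. The adhesion and pluripotency lists below likewise share 1 gene, apela, so these lists are not separate evidence.

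The T-box gene tbxta, required for posterior mesoderm and notochord, was lower on every malformed array without passing. It read 8.44, 9.19 and 9.79 in severe embryos and 10.40 in mild embryos, against 11.75 in normal embryos (log2 difference -2.29, SE 0.63, limma adjusted p = 0.0802). The mild array lay nearest to the normal one, and no malformed array reached it. The severe arrays also differed among themselves, and with 1 mild array no order by severity can be shown. The notochord gene noto, by contrast, read 11.33, 11.57 and 12.47 in severe embryos and 12.74 in mild embryos, against 12.11 in normal embryos, so the groups overlapped.

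The dorsal organizer list, which signals from the future dorsal side, had the fourth-lowest median (-1.45), but 0 of 14 tested members passed. Over all genes 2.02% passed. In the organizer list 5 genes read at least 2-fold lower on each malformed array, against 4.93% of all genes. The LIM homeobox gene lhx1a read 6.45, 6.61 and 6.90 in severe embryos and 7.57 in mild embryos, against 9.27 in normal embryos (log2 difference -2.39, SE 0.48, limma adjusted p = 0.053). The BMP antagonist gene chrd read 7.26, 7.47 and 7.33 in severe embryos and 8.04 in mild embryos, a log2 difference of -1.47 from normal embryos (SE 0.40, limma adjusted p = 0.0793). The homeobox gene gsc spanned 8.76 to 10.68 in malformed embryos, against 11.21 in normal embryos (limma adjusted p = 0.165). The list shares 4 of its 14 genes with the mesendoderm list, where they are 4 of 29.

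Genes of the BMP pathway and the ventral side were mostly lower as well, with 14 differences negative and 6 positive. The highest was that of foxi1 (0.89). Of 29 on the array 20 were tested. Of these, 3 fell (1.13% of all genes did) and 0 rose (0.888% of all genes did). In all, 6 read at least 2-fold lower on each malformed array, against 4.93% of all genes (median -0.67). Besides eve1 and cdx4 the fall was bambia, a decoy receptor that limits BMP signalling, at 9.30, 9.97 and 9.64 in severe embryos and 10.30 in mild embryos, against 11.80 in normal embryos. The ventral repressor gene ved read 8.77, 9.67 and 8.96 in severe embryos and 9.92 in mild embryos, against 11.66 in normal embryos (limma adjusted p = 0.0509). The ligand gene bmp2b did not follow these, with 9.79 to 10.08 in malformed embryos and 9.84 in normal embryos. In the FGF list 0 of 14 passed, where 2.02% of all genes did (median -0.65). There the target gene etv4 read 7.48 to 8.26 in malformed embryos, against 9.35 in normal embryos, while etv5a read 10.67 to 11.12, against 9.91. In the Wnt list 1 of 22 fell (1.13% of all genes did), dact2, a modulator of Dishevelled (-1.87, SE 0.35). The median of the Wnt list was -0.18.

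Genes of movement and cell shape held single large falls. Of 26 adhesion and gastrulation movement genes 2 fell (1.13% of all genes did) and 0 rose (0.888% of all genes did). In all, 5 read at least 2-fold lower on each malformed array, against 4.93% of all genes (median -0.13). The peptide gene apela, a ligand of the apelin receptor that guides mesendoderm cells, read 7.07, 7.53 and 6.10 in severe embryos and 7.17 in mild embryos, against 10.36 in normal embryos (log2 difference -3.40, SE 0.54). The GTPase gene rhoaa read 7.04, 7.71 and 7.50 in severe embryos and 7.94 in mild embryos, against 10.14 in normal embryos (-2.59, SE 0.40). N-cadherin (cdh2) spanned 7.12 to 7.86 in malformed embryos, against 9.32 in normal embryos, without passing. Of 20 actin cytoskeleton genes 2 fell (1.13% of all genes did), fscn1a and the calponin gene cnn2 (-1.34). On each malformed array 4 read at least 2-fold lower (2 after median centring), against 4.93% of all genes. For 15 of the 20 each malformed array lay below the normal one, against 1772 of all 6192 genes, and the median was -0.35. The actin-sequestering thymosin gene tmsb1 had the largest difference of the list, from 4.73 on severe array 3 to 7.62 on severe array 2, against 11.02 in normal embryos (limma adjusted p = 0.0523).

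Neural plate and pluripotency genes went both ways. Of 17 neural plate genes 2 rose (0.888% of all genes did), rx3 and her5, and 0 fell (1.13% of all genes did). The median was -0.39, with 10 differences negative and 7 positive. The gene sox2 had the lowest difference of this list and of the pluripotency list. It read 4.36, 5.15 and 2.42 in severe embryos and 6.48 in mild embryos, against 9.40 in normal embryos, without passing. Severe arrays 1 and 3 were under background for it, so the size is uncertain. The SoxB1 gene sox3 read 12.18, 12.30 and 12.27 in severe embryos and 12.44 in mild embryos, against 13.21 in normal embryos (log2 difference -0.91, SE 0.19, limma adjusted p = 0.0557). Of 23 first zygotic and pluripotency genes 1 fell, apela, and 0 rose, where 1.13% and 0.888% of all genes did. Their median was -0.44, with 18 differences negative and 5 positive. The KLF factor gene klf2a read 10.15 to 10.45 in malformed embryos, against 9.22 in normal embryos, without passing (limma adjusted p = 0.0542).

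Transcripts deposited in the egg were higher in malformed embryos. Of 13 egg and oocyte genes 1 rose (0.888% of all genes did) and 0 fell. In all, 5 read at least 2-fold higher on each malformed array, against 3.7% of all genes. With hybridisation-control scaling the 5 became 1. For 11 of the 13 each malformed array lay above the normal one, against 2468 of all 6192 genes. Their median was 1.00, and by array 1.37, 1.24 and 0.79 in severe embryos and 0.63 in mild embryos. The oocyte claudin gene cldnd read 13.23, 13.12 and 12.84 in severe embryos and 12.80 in mild embryos, against 11.61 in normal embryos (log2 1.39, SE 0.23). The Balbiani body gene buc, which assembles germ plasm in the oocyte, was higher on every malformed array without passing. It read 11.92, 11.50 and 10.80 in severe embryos and 10.26 in mild embryos, against 9.14 in normal embryos.

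Of 23 factors that store or clear maternal mRNA, 2 rose (0.888% of all genes did), 0 fell, and 6 read at least 2-fold higher on each malformed array, against 3.7% of all genes (median 0.42). With hybridisation-control scaling the 6 became 4. The risers were lsm14b, an RNA-granule protein gene (log2 1.90, SE 0.32), and zar1l, a relative of the oocyte gene zar1 (1.75, SE 0.32). The deadenylation adaptor gene btg4 had the largest difference of the list, at 11.92, 11.87 and 10.29 in severe embryos and 10.15 in mild embryos, against 8.24 in normal embryos (limma adjusted p = 0.0718). In germ plasm and germ cell genes 0 of 11 passed, where 2.02% of all genes did. There dazl, an RNA-binding protein of germ cells, read 10.74, 10.56 and 10.58 in severe embryos and 9.75 in mild embryos, against 8.78 in normal embryos. Its severe values lay above the mild one.

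Ribosomal protein genes stood lower in malformed embryos by small amounts, and 0 of 70 passed, where 2.02% of all genes did. For 66 of the 70 each malformed array lay below the normal one, against 1772 of all 6192 genes. Their median was -0.73, and by array -1.25, -0.97 and -0.48 in severe embryos and -0.30 in mild embryos. Control morpholino embryos also lay below the normal array, with medians of -0.54, -0.59 and -0.02, so the mild array and severe array 3 fell within the range of the controls. Single genes could differ from these medians. The gene rps15a read 11.28, 11.28 and 11.49 in severe embryos and 11.73 in mild embryos, against 12.66 in normal embryos. Controls read 12.01 to 12.64, so for rps15a every malformed array lay below them.

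Other housekeeping lists held at most 1 fall each, too few to set apart from the 1.13% of all genes that fell. Of 35 proteasome genes 1 fell, psmb6, a catalytic subunit, at 7.25, 7.27 and 7.25 in severe embryos and 7.34 in mild embryos, against 9.31 in normal embryos (log2 difference -2.03, SE 0.32). Of 43 respiratory chain and ATP synthase genes 1 fell, the complex I subunit gene ndufs6 (-1.99, SE 0.34). Of 30 translation factor genes 0 passed (median -0.32). In the cell cycle list of 41 genes, cdca9 rose and the B-type cyclin gene ccnb3 fell (-2.18, SE 0.32, and -2.59 on a second probe set that passed, with -1.58 and -2.16 on others that did not), and the median was -0.06. Of 25 chromatin genes 1 fell, the DNA methyltransferase gene dnmt3ba (-1.13, SE 0.21). The Polycomb gene bmi1b read 10.55, 10.25 and 10.04 in severe embryos and 9.38 in mild embryos, against 8.27 in normal embryos, without passing.

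In 6 lists of stress, death, immunity and kinase signalling no gene passed, where 2.02% of all genes did, a share that would give few calls in lists of this size. They were chaperones (16 tested), endoplasmic reticulum stress (19), p53 and DNA damage (23), apoptosis (21), MAP kinase and AP-1 (17) and innate immunity (7). The endoplasmic reticulum list had a median of 0.51, from 0.33 to 0.60 over the malformed arrays. Its chaperone gene hspa5 read 12.45, 12.20 and 11.64 in severe embryos and 11.54 in mild embryos, against 10.71 in normal embryos (limma adjusted p = 0.0858). The other 5 medians lay between -0.13 and 0.04, and their signs turned in at least 3 of the alternatives. Single genes went both ways. Differences were positive for 12 and negative for 11 p53 and DNA damage genes, and for 11 and 10 apoptosis genes. The pro-apoptotic gene bokb read 9.66 to 10.49 in malformed embryos, against 8.48 in normal embryos, and the DNA repair gene ddb2 8.69 to 9.06, against 7.71. Lower in malformed embryos were rps27l of the p53 list, at 7.39 to 8.44 against 9.47, and cycsb of the apoptosis list, at 10.75 to 11.27 against 12.03.

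The prmt6 transcript itself read 11.30, 11.10 and 11.41 in severe embryos and 11.13 in mild embryos, against 11.22 in normal embryos (log2 difference 0.01, SE 0.21, limma adjusted p = 0.976). Control embryos read 9.67, 9.87 and 9.56, so all 5 morpholino arrays lay above all 3 controls whatever the shape. The level of the target RNA does not measure the knockdown, and the amount of PRMT6 protein was not measured here. None of the 7 arginine methyltransferase and partner genes tested passed. Over all genes the share was 2.02%, which would give few calls in a list of this size. The nearest to passing was prmt5, at 11.01 to 11.32 in malformed embryos, against 10.44 in normal embryos and 10.46 to 10.96 in controls.

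Over all probe sets, 17 (0.183%) were at least 2-fold higher on all 5 morpholino arrays than on every control, and 31 (0.333%) at least 2-fold lower. None of either set passed between malformed and normal embryos in limma. Of all probe sets 1.82% did, a share that would give few calls in sets of this size. Many differed without passing. The median difference was 0.75 in the higher set and -1.07 in the lower set, against 0.09 over all probe sets. All 4 malformed arrays lay above the normal array in 10 of the 17, against 37.4% of all probe sets. They lay below it in 26 of the 31, against 29.2%. Both sets were chosen by the values of these same morpholino arrays against the controls. That choice can itself favour malformed arrays lying farther from the controls than the normal array. These medians and shares therefore show no separate difference by shape. The named examples that follow were chosen after their values were seen. The yolk syncytial regulator mxtx2 read 10.11 to 11.11 in malformed embryos, 10.47 in normal embryos and 8.75 to 9.05 in controls. The immediate-early gene fosab read 8.75 to 9.79 in malformed embryos, 9.04 in normal embryos and 6.34 to 7.43 in controls. For both, the normal array lay inside the malformed range, though on a second fosab probe set it read 7.61, against 7.88 to 8.76 in malformed embryos.

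A second group stood part of the way. The Polycomb gene bmi1a read 11.75 to 12.12 in malformed embryos, 11.12 in normal embryos and 9.04 to 9.77 in controls. The growth-arrest gene gadd45aa read 9.05, 9.24 and 9.96 in severe embryos and 9.30 in mild embryos, against 8.16 in normal embryos (log2 1.23, SE 0.37, limma adjusted p = 0.0926) and 6.39 to 6.78 in controls. The heat-inducible chaperone gene hsp70.3 read 9.77, 11.20 and 8.30 in severe embryos and 9.43 in mild embryos, against 7.65 in normal embryos (log2 2.02, SE 0.88, limma adjusted p = 0.184) and 5.20 to 6.20 in controls. In each, the normal array lay between the other groups and overlapped neither. Of the lower set, the complex I subunit gene ndufv1 read 7.59, 7.25 and 7.13 in severe embryos and 6.79 in mild embryos, against 8.41 in normal embryos (limma adjusted p = 0.111) and 10.35 to 10.56 in controls. The ribosomal RNA dimethyltransferase gene dimt1l read 3.16 to 5.21 in malformed embryos, against 6.91 in normal embryos (limma adjusted p = 0.0874) and 7.91 to 7.96 in controls. The amino acid transporter gene slc43a1a did not separate by shape, at 10.11 to 10.49 in malformed embryos, 10.37 in normal embryos and 11.70 to 11.81 in controls.

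**Figure D4:**
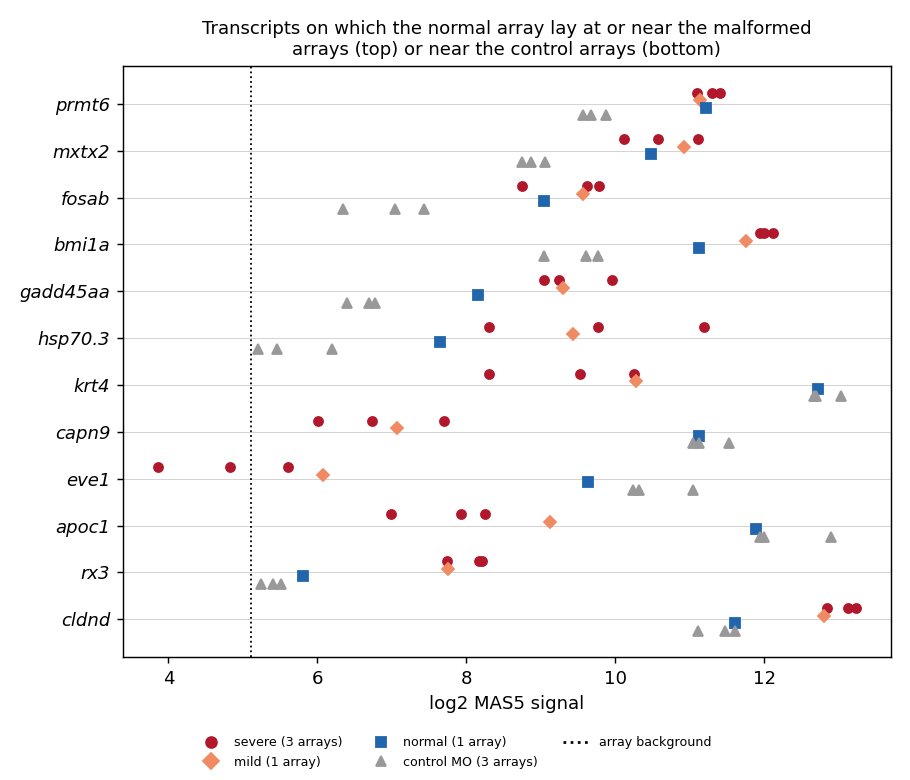
Log2 MAS5 signal on every array for transcripts chosen after their values were seen, with severe arrays as circles, the mild array as a diamond, the normal array as a square, controls as triangles and the array background as a dotted line. For prmt6, mxtx2 and fosab the normal array lies among the malformed arrays, for bmi1a, gadd45aa and hsp70.3 between groups, for krt4, capn9, apoc1 and cldnd at or near the controls, for eve1 below all 3 of them and for rx3 above.

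For the genes that did differ by shape, the normal array lay inside or outside the range of the controls. Of the 66 higher probe sets, the normal array lay inside the control range in 38, below every control in 23 and above every control in 5. Of the 103 lower ones it lay inside in 42, below every control in 50 and above every control in 11. It lay inside for 38.2% of all 9301 probe sets. Eve1 is an example of a normal array below the controls (9.63, against 10.24 to 11.04), and capn9 of one inside them (11.12, against 11.04 to 11.53). All 4 malformed arrays lay beyond all 3 controls, in the same direction, for 63 of the 66 and for 103 of the 103. These placements use the same normal array as the comparison itself and are given as levels, with no test. Apart from the share inside the control range, shares over all probe sets were not counted. The counts below, above or beyond the controls therefore cannot be set against them.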

How the data were processed

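The deposited table holds log2 MAS5 signals, 1 per probe set and array. MAS5, which subtracts mismatch from match probes, was named per the submitters' processing notes, without a version. The values show that the authors scaled each array to a trimmed mean linear signal of about 500.1. Gene symbols came from the platform annotation, updated through Entrez numbers for 10711 of 10795 probe sets with 1 symbol. Another 135 had several and 4572 none, and these were not named. The 115 control probe sets were left out, and a probe set was tested if its 8-array mean reached the 40th percentile (log2 5.59).

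Malformed (severe and mild, n = 4) and normal (n = 1) means were fitted with limma 3.58.1 (lmFit, eBayes with trend) in R 4.3.3 on the 5 morpholino arrays, and p-values adjusted by Benjamini-Hochberg at 0.05. Controls entered the filter only. Severe against mild used 3 group means. The brightest probe set stood for its gene. Background was the 95th percentile of 17 Tag probe sets. Where every array of one side lay under it, the other side's mean was set against it ("at least N-fold"). Lists got no set test.

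Named genes were prmt6, the 12 largest passing rises and falls with no overlap of arrays (clone-style symbols left out), and, in each list, at most 4 members by lowest p. Others were chosen after their values were seen. Members and lists were chosen with earlier results of these arrays known. The fit was tested on simulated data. No genome build was used here. Alternatives covered scaling, pseudocount, filter, variance model, features and omitted arrays. Matplotlib 3.10.9 drew the figures.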

Additional observations from a re-analysis of the deposited data

Results flagged for a closer look

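Among the 4 malformed arrays, 8 of 156 sets of values tested held an array far from the other 3 by Dixon's criterion, and chance flags about 1 in 20 such sets. The mild array stood apart for apoc2, at 6.01 against 2.05 to 2.47 on the severe arrays, and for the poly(A)-binding protein gene pabpn1l, at 11.27 against 11.54 to 11.59. Severe array 1 stood apart for the laminin gene lamb1a, at 3.96 against 6.20 to 6.50, for the Wnt receptor gene fzd10, at 4.23 against 5.11 to 5.23, and for prmt5, at 11.32 against 11.01 to 11.05. Severe array 3 stood apart for the polyadenylation factor gene cpeb1b, at 10.80 against 10.29 to 10.32, for the methylosome gene wdr77, at 8.91 against 8.74 to 8.75, and for the median of the arginine methyltransferase list relative to the normal array, at 0.31 against 0.14 to 0.16. That median is the wdr77 difference itself.

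The mild and severe arrays went opposite ways from the normal array for 2 genes of NF-kB signalling, a difference that was not tested beyond the comparison of severe with mild embryos, in which neither passed. For nfkb2 all 3 severe arrays were higher than normal, by 0.30 to 0.88, while the mild array differed by -0.0316. For the inhibitor gene nfkbiaa all 3 severe arrays were lower, by -1.20 to -0.36, while the mild array differed by 0.103.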

How the results depend on the processing

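The count of 169 (66 higher, 103 lower) moved with most settings. It was 1147 (491 and 656) with all 8 arrays in the fit and 1452 (699 and 753) with severe array 3 and mild alone against normal. With both changes together it was 1083 (344 and 739), and with all 8 arrays and equal weights for severe and mild it was 911 (349 and 562), both settings chosen after seeing the data. It was 456 (209 and 247) after quantile normalization, 548 (299 and 249) after median centring and 412 (145 and 267) on log2(linear value + 16). It fell to 79 (34 and 45) with the filter at the 60th percentile, 27 (3 and 24) without the variance trend and 16 (2 and 14) when arrays were scaled on 18 hybridisation control probe sets. It was 0 with no filter and 0 for mild embryos alone (limma; 3138 and 1188 at an unadjusted p under 0.05). Leaving out 1 array at a time gave 0 to 1155 in all, 0 to 646 higher and 0 to 509 lower. With the filter on the 5 morpholino arrays alone the count was 175 (74 and 101), and 154 of the 169 were tested. Severe against mild gave 0 to 1691 when 1 severe array was left out and 5 when scaled on hybridisation controls. The share of higher calls was 66 of 169 as fitted, 299 of 548 after median centring and 2 of 16 on hybridisation controls. Those scalings put the median of all probe sets at 0.07 and 0.11, against 0.09 as deposited.

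The 511 probe sets at least 2-fold below normal on all 4 malformed arrays became 243 with the 60th percentile filter, 305 with 1 probe set per gene and 1027 with no filter. The 314 above became 180, 191 when scaled on hybridisation controls, 692 with no filter and 635 without the mild array. One array left out gave 536 to 641 below and 321 to 635 above. The filter on the 5 morpholino arrays alone gave 415 below and 331 above. Single-gene values changed sign for 5 genes, none of which had passed. For prmt6 it was -0.0011 after median centring, -0.0072 without severe replicate 1, -0.044 without severe replicate 3 (0.059 without severe replicate 2), -0.0196 with equal weights (also in the fit of all 8 arrays) and -0.086 for mild embryos alone. For wdr77 it was -0.0066 after quantile normalization, and for mild embryos alone it was -0.032 for nfkb2 (0.48 as fitted) and 0.10 for nfkbiaa (-0.56 as fitted). For urod it was 0.021 without severe replicate 1 (-0.131 without severe replicate 3), 0.026 without the mild array and 0.048 without severe arrays 1 and 2 (also in the fit of all 8 arrays). The medians of the enveloping layer, keratin, yolk syncytial, mesendoderm, organizer, BMP, egg and ribosomal lists kept their sign in each alternative. The cause of these shifts was not tested. No paired analysis was possible because the normal and mild arrays carry no replicate number. Dim probe sets limit the size of falls, since 9 of 103 had all malformed arrays under background.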

Other observations

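The following genes past the threshold were chosen after their values were seen, and no theme among them was tested. Among rises was the lysosomal protease gene ctsz, at 10.51, 10.30 and 10.20 in severe embryos and 9.90 in mild embryos, against 8.45 in normal embryos. Another was the lysosomal membrane gene cd68, at 9.84 to 10.05 against 8.20. The cathepsin gene ctsll went the other way by a larger amount (-3.47). It read 7.30, 7.37 and 8.09 in severe embryos and 8.80 in mild embryos, against 11.36 in normal embryos. The MAP kinase-interacting kinase genes mknk1 and mknk2b were both higher (log2 1.65, SE 0.29, and 1.25, SE 0.23), though other mknk2b probe sets differed by 1.11 and 0.30 without passing. The nuclear receptor gene nr4a1 was higher by 1.53 and the chromatin remodeller smarca2 by 1.38. Among falls was the gene hes6, at 8.15, 8.47 and 8.53 in severe embryos and 8.85 in mild embryos, against 10.63 in normal embryos. Another was the zinc finger gene yy1a (-1.49, SE 0.22, with -1.14 on a second probe set that did not pass). The ribosome assembly genes nop2 (-2.33) and nob1 (-2.04, with -0.61 on a second probe set that did not pass) and the amino acid transporter subunit gene slc3a2b (-2.90) fell.

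Probe sets of 1 gene did not always match in direction or size. For the claudin gene cldng one probe set rose, at 11.99 to 12.83 in malformed embryos against 10.21 in normal embryos, while the other 3 differed by -0.70, -1.34 and -0.60 without passing. For the splicing regulator gene ptbp1a one probe set fell by 2.67 on the log2 scale, and others differed by -2.10 and -0.72 without passing.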
